A study of Mus musculus with 6 samples.

Results

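Kidneys collected 3 days after a 60 min clamp of the renal pedicle were compared with kidneys collected 3 days after a 45 min clamp. Each side of the comparison was 1 Affymetrix array, chosen by the clamp time and day in its label, so the comparison uses 2 of the series' 6 arrays. Both arrays hold kidney RNA of male FVB/N mice taken on day 3, after a unilateral clamp of 60 min on one and of 45 min on the other. All mice were 6 to 8 weeks old, weighed 22 to 26 g, were anesthetised with pentobarbital and had the pedicle exposed through the flank. The other 4 arrays hold a kidney with a 0 min clamp on day 3 and kidneys with 60, 45 and 0 min clamps on day 1. They were used here as values beside the comparison. The series title concerns blockade of tumor necrosis factor (TNF) after ischemia-reperfusion injury, and the 6 arrays carry no label of such a treatment. The labels give neither the number of animals behind each array nor the state of the opposite kidney.

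Clamping the renal pedicle stops blood flow, and its release lets oxygen back into tissue that has run out of energy stores. Proximal tubule cells, which depend on oxidative metabolism, die or lose their brush border, and surviving cells lose differentiated features, divide and re-cover the tubule. Monocytes and macrophages enter the kidney in this phase, and prolonged injury is followed by fibroblast activation and matrix deposition.

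With 1 array per condition no spread between replicates could be measured, so no p-value is given and differences are described by size alone. Values are deposited intensities, and a difference is log2(intensity + 16) in the 60 min kidney minus that in the 45 min kidney of day 3, unless another pair is named. Adding 16 makes the difference of a dim gene smaller than the ratio of its intensities. A gene was counted as higher or lower when this difference reached 2-fold, a log2 difference of at least 1. The trimmed mean intensity was 500.003 on each array, and array medians lay between 81.4 and 95.3. Umod and Slc34a1, which mark the thick ascending limb and the proximal tubule, had intensities of at least 27164 and 13046 on all 6 arrays. The actin control probe sets read RNA integrity as the signal of the 3' set over that of the 5' set. On the log2 scale this ratio was 0.49 on the 60 min day 3 array, 1.03 on the 45 min day 3 array and 0.77 to 1.12 on the other 4. The corresponding Gapdh ratios of the 60 min and 45 min day 3 arrays were -0.37 and -0.33. The part of RNA integrity in the differences below was not tested.

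Of 12735 genes, 758 (5.95%) were at least 2-fold higher and 303 (2.38%) at least 2-fold lower in the 60 min than in the 45 min kidney. These shares are the background for the list counts of this comparison below. The median difference over all genes was 0.09. At 4-fold or more, 81 genes were higher and 47 lower. For scale, the 0 min kidneys of day 3 and day 1 differed at least 2-fold in 393 genes (3.09%), a value that includes the effect of the day. Among the 758 higher genes the 60 min day 3 array was the highest of all 6 arrays for 625, and the 45 min day 3 array was the lowest of the 6 for 211. Among the 303 lower genes the 60 min day 3 array was the lowest of the 6 for 240, and the 45 min day 3 array was the highest for 115. These genes were selected on the same 2 arrays, so the counts describe the selection and test nothing. In whole-kidney RNA fewer cells of a type and less RNA per cell cannot be told apart.

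Sprr2f, a small proline-rich protein of stressed epithelia, had the largest positive difference. Its intensity was 2202 in the 60 min kidney and 81.7 in the 45 min kidney, a log2 difference of 4.51. The 0 min kidney of day 3 had 58.9, and the day 1 kidneys had 961 after 60 min, 107 after 45 min and 50.2 after 0 min. Both 60 min arrays thus stood above the other 4 for this gene. Next came Hmox1 at 3.26, heme oxygenase, the enzyme that degrades heme. Hmox1 had 982 in the 60 min kidney, 87.9 in the 45 min kidney and 389 in the 0 min kidney of day 3, so the 45 min value was the lowest of that day. On day 1 Hmox1 had 256 after 60 min, 160 after 45 min and 175 after 0 min. The other 13 of the 15 highest genes were Cenpi, Bub1, Trip13, Anln, Kif22, Gpnmb, Fbxo42, Plp2, Cpne2, Rhbdf2, Birc5, Melk and Uhrf1, with differences between 2.65 and 3.05. In the 45 min kidney Cenpi had 14.7 and Cpne2 27.2, near the added 16, so the sizes of their differences depend on it. Cenpi, Bub1, Trip13, Anln, Kif22, Birc5 and Melk act in chromosome segregation, its checkpoint or cell division. Fbxo42, an F-box protein, had 643 in the 60 min kidney and 77.2 in the 45 min kidney, but 457 to 587 on the other 4 arrays. Its 3 probe sets disagreed in size, with differences from 0.26 to 2.82, and the values given are from the one with the largest.

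The named gene furthest below its 45 min value was Igfbp1, an insulin-like growth factor binding protein, at -3.35. The clone 3110040M04Rik, which the naming rule passed over, stood lower still at -3.97. Igfbp1 had 132 in the 60 min kidney, 1493 in the 45 min kidney and 201 in the 0 min kidney of day 3. On day 1 it had 570 after 60 min, 1318 after 45 min and 363 after 0 min. Both 45 min arrays were therefore the highest for this gene. Slc22a7, an organic anion transporter, had 412 in the 60 min kidney and 4056 in the 45 min kidney, a difference of -3.25. The unclamped kidneys had 8196 on day 3 and 2079 on day 1, so they too differed for Slc22a7. Pvalb, the calcium-binding protein of the early distal convoluted tubule, had 181 in the 60 min kidney, 1804 in the 45 min kidney and 2062 in the 0 min kidney, a 60 minus 45 min difference of -3.21. The rest of the 15 lowest were Zbtb16, Igkv8-30, Cyp7b1, Depp1, Jchain, Igha, Hspa1a, Apoa4, Slc22a19, Mpped1, C8a and Cyp2d9, between -2.63 and -3.14. Mpped1 was dim, with 9.85 in the 60 min kidney and 148 in the 45 min kidney.

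**Figure D1:**
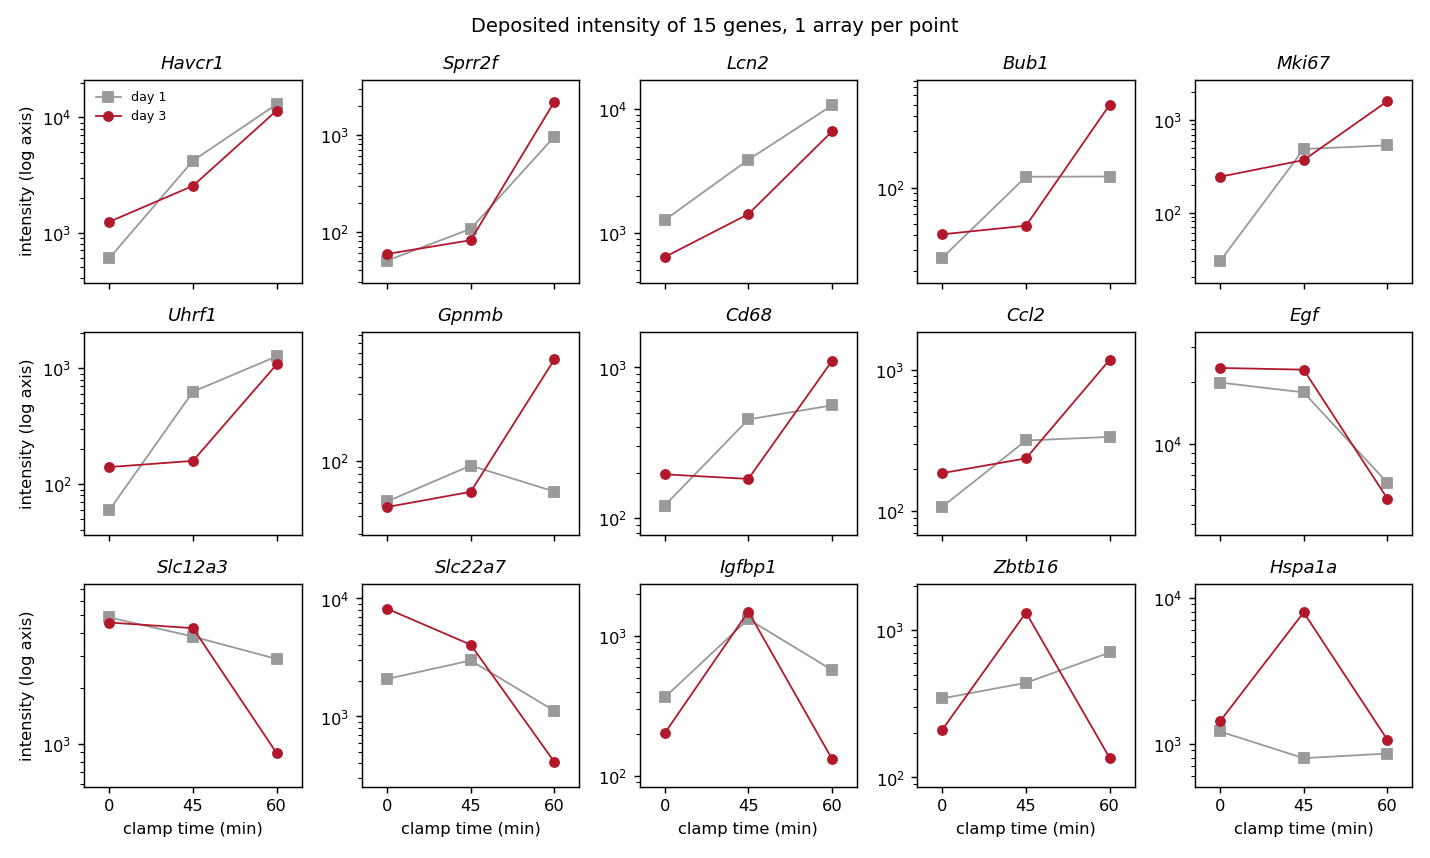
Deposited intensity (log axis) of 15 genes against clamp time in min, with day 3 as circles and day 1 as squares, 1 array per point. Sprr2f, Bub1 and Gpnmb were highest in the 60 min kidney of day 3 (2202, 500 and 535), whereas Igfbp1, Zbtb16 and Hspa1a were highest in the 45 min kidney of day 3 (1493, 1319 and 7932).

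The promoter windows of 4 of the 15 highest genes are printed because they are the ones of that group in which an AP-1 or CHR motif was found. Cenpi, Bub1, Trip13 and Uhrf1, also among the 15 highest, held CCAAT or TEAD motifs alone. Of the 10 genes among the 15 lowest with a RefSeq promoter, 7 held a searched motif, and in Igfbp1, Jchain and C8a it was a CHR match. AP-1 motifs, bound by Fos and Jun proteins, were searched as TGANTCA. The cell cycle homology region (CHR), bound by complexes that time late cell cycle genes, was searched as TTTGAA, and the CCAAT box, bound by NF-Y, as CCAAT. The TEAD motif GGAATG and the HNF4 motif CAAAGTCCA were searched too, all on both strands. Sequences are from RefSeq on GRCm38.p6, each read in the direction of its gene, with the matches in capitals. Sprr2f lies at chr3:92364937-92365236 on the plus strand, with an AP-1 motif at position -197 from the start and CCAAT boxes on either strand. Kif22 lies at chr7:127042371-127042670 on the minus strand, with 2 CHR matches and 2 CCAAT boxes. Anln lies at chr9:22389157-22389456 on the minus strand, with 2 CHR matches on opposite strands, side by side. Gpnmb lies at chr6:49036268-49036567 on the plus strand, with an HNF4 motif upstream and an AP-1 motif just after the start. No matches overlap in these 4 windows.
Sprr2f: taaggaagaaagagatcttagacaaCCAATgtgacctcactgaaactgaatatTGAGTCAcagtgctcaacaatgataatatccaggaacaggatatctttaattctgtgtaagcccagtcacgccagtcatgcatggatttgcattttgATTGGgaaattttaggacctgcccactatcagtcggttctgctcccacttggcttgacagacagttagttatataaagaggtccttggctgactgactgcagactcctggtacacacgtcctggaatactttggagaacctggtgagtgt
Kif22: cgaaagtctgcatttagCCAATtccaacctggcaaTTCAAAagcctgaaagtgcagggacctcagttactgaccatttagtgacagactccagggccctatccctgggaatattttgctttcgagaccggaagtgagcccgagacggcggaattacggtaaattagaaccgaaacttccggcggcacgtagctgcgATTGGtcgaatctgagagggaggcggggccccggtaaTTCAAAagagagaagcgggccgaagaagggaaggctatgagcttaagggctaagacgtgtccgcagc
Anln: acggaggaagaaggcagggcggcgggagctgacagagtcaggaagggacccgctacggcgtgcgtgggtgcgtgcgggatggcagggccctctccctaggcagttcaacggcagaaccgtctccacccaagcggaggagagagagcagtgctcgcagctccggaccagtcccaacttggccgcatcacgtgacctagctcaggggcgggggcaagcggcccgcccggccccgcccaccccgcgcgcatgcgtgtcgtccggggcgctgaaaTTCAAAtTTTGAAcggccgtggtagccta
Gpnmb: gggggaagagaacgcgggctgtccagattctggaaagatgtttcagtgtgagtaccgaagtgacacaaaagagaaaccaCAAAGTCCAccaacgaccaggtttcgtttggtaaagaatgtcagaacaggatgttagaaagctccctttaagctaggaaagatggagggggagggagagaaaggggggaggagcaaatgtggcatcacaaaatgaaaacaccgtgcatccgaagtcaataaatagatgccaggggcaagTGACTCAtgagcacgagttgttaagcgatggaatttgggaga

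Among 24 RefSeq promoters found for 22 of 27 mitosis genes, 79.2% held a CHR match and 87.5% a CCAAT box. Over the 13177 promoters of all genes tested the shares were 12.0% and 36.8%, and over all 32851 promoters 17.9% and 37.4%. The 708 promoters of the genes at least 2-fold higher held them in 20.6% and 38.8%, and the 305 of those lower in 15.1% and 40.3%. For DNA replication genes the shares were 12.1% and 57.6%, and for proximal tubule transporters 21.1% and 21.1%. AP-1 motifs were in 6 (25.0%) of 24 promoters of tubular injury markers, against 5.35% over the genes tested. They were in 6.36% of the 708 promoters of the genes at least 2-fold higher and in 4.92% of the 305 of those lower. The HNF4 motif was in 5 (1.64%) of 305 promoters of the genes at least 2-fold lower, against 0.501% over the genes tested. Among the 708 promoters of the higher genes it was in 4 (0.565%), so these shares rest on few promoters. A match is a run of letters and was not tested as a binding site.

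Cell division genes showed the largest list median. Of 27 mitosis genes measured, 26 were at least 2-fold higher in the 60 min kidney and 0 lower, with a median of 1.97. Bub1, a kinase of the spindle checkpoint, had 500 in the 60 min kidney, 48.2 in the 45 min kidney and 40.8 in the 0 min kidney of day 3. Cdc20, which activates the anaphase-promoting complex, had 2953 in the 60 min kidney, 463 in the 45 min kidney and 441 in the 0 min kidney. Mki67, the proliferation marker Ki-67, had 1609, against 370 in the 45 min kidney and 244 in the 0 min kidney. For Bub1 and Cdc20 the 45 min kidney of day 3 lay close to the unclamped kidney of that day, whereas Mki67 was higher after 45 than after 0 min by 0.57 on the log2 scale. Foxm1, a transcription factor of mitotic genes, was the exception at -0.38, with 250 in the 60 min and 331 in the 45 min kidney. The mitosis list had a median of 2.42 for 60 minus 0 min and of 0.28 for 45 minus 0 min on day 3, 2 comparisons that share the 0 min array. The 0 min arrays also differed in this list, with 19 of 27 genes at least 2-fold higher on day 3 than on day 1 (background 1.71% of all genes) and a median of 1.28. On day 1, 60 minus 45 min had a median of 0.02 for the list and 0 of 27 genes past 2-fold in either direction (background 1.01% higher and 0.982% lower).

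DNA replication genes followed the same direction, with 25 of 32 at least 2-fold higher, 0 lower and a median of 1.45. Uhrf1, which keeps DNA methylation through replication, had 1081 in the 60 min kidney and 159 in the 45 min kidney (2.65). Mcm5 and Mcm6, parts of the replicative helicase, stood at 2.46 and 2.29, and Rrm2, the small subunit of ribonucleotide reductase, at 2.44. Mcm2 and Mcm10 stood at 0.07 and -0.30. On day 1 the list had a median of 0.50, and Uhrf1 had 1267 after 60 min and 629 after 45 min. The 45 min kidney thus had less Uhrf1 signal on day 3 than on day 1, while the 60 min kidneys of both days had more than either. Among p53 targets and arrest genes 3 of 22 were at least 2-fold higher and 1 lower, with a median of 0.27. The higher ones were Pmaip1 (1.59), a cell death factor, Btg2 (1.20), an antiproliferative factor, and Plk2 (1.06), a stress-induced kinase. With the mean of their probe sets both Btg2 (0.86) and Plk2 (0.86) were below 2-fold. Gadd45g, a stress sensor, was the lower one at -1.43.

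**Figure D2:**
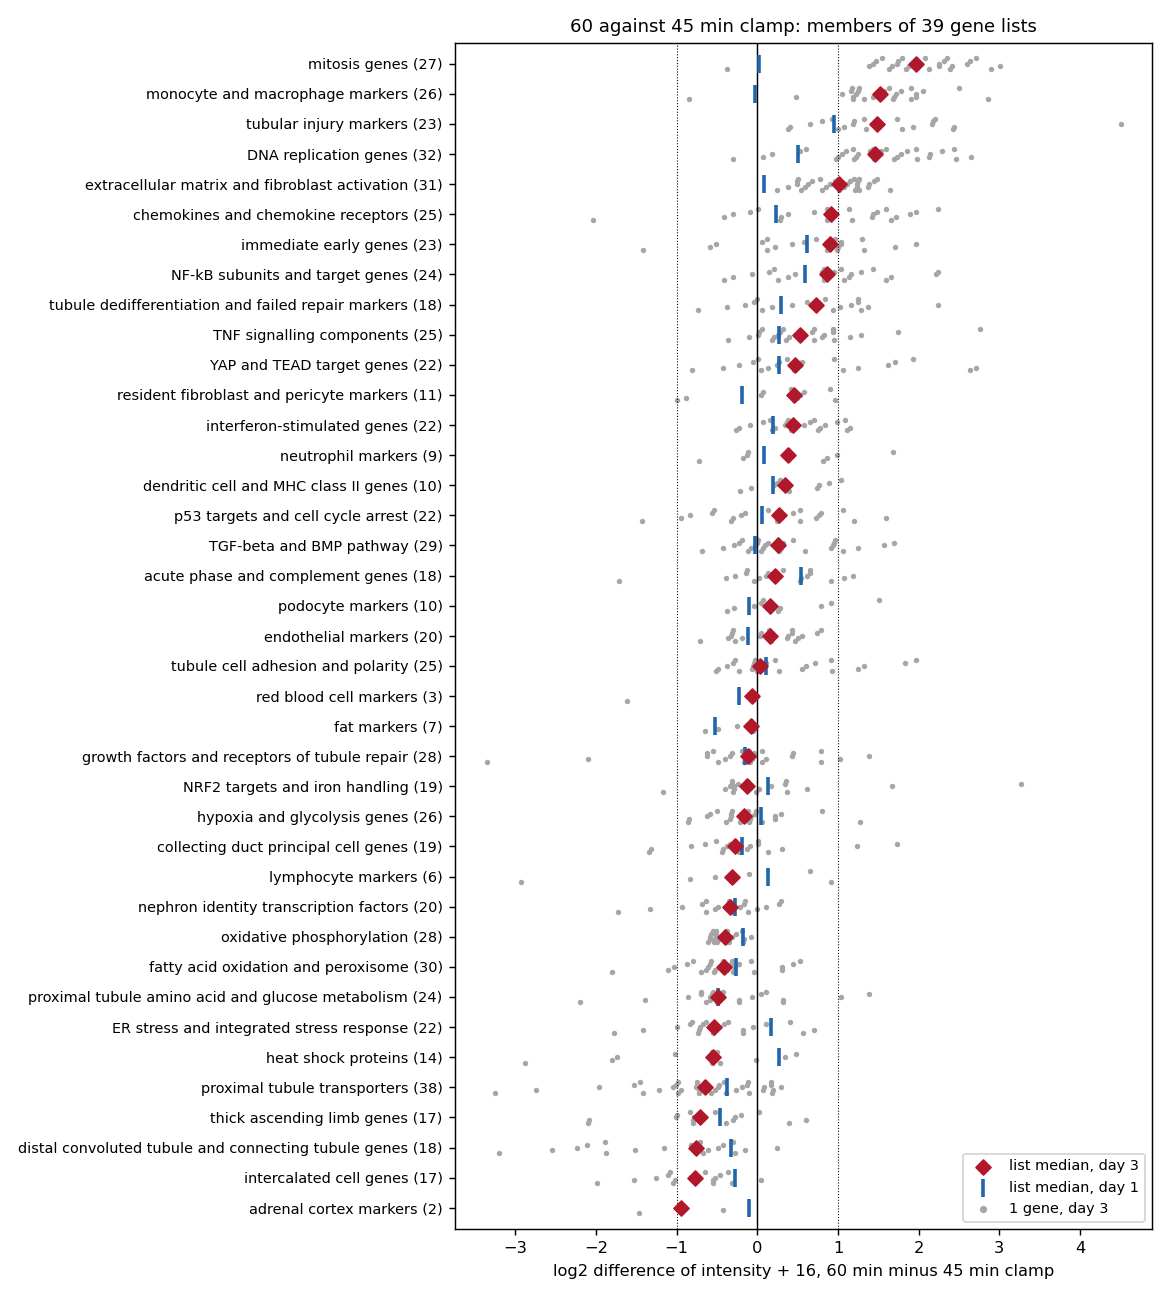
Log2 difference of intensity + 16, 60 min minus 45 min clamp, for the members of 39 lists (number of measured genes in brackets), sorted by day 3 median. Grey points are genes on day 3, diamonds list medians on day 3, vertical ticks list medians on day 1 and dotted lines 2-fold. Mitosis genes lie at the top (1.97 on day 3, 0.02 on day 1) and the adrenal list of 2 dim genes at the bottom (-0.95).

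Markers of injured tubule were higher throughout. Of 23 measured, 17 were at least 2-fold higher, 0 lower, and all 23 differences were above 0 (median 1.49). The list shares Lgals3 with the macrophage list and Vim with the matrix list, and the part of cells other than tubule was not tested. Havcr1, the KIM-1 receptor that injured proximal tubule cells use to engulf dead cells, had 11483 in the 60 min kidney, 2548 in the 45 min kidney and 1242 in the 0 min kidney of day 3. On day 1 it had 13011 after 60 min, 4216 after 45 min and 599 after 0 min. Lcn2, the iron-siderophore carrier NGAL, had 6621 in the 60 min kidney, 1423 in the 45 min kidney and 640 in the 0 min kidney of day 3. The order of the 3 clamp times was the same on both days for Havcr1 and Lcn2. Krt19, a keratin of immature and ductal epithelium, and Anxa3, an annexin, stood at 2.44 and 2.42. Krt7, Tnfrsf12a and Clu had the smallest differences, 0.38 to 0.65. On day 3, 22 of 23 were at least 2-fold higher for 60 minus 0 min (7.52% of all genes) and 7 of 23 for 45 minus 0 min (1.45% of all genes), 2 comparisons that share the 0 min array. For 60 minus 45 min on day 1 the list median was 0.95, with 11 of 23 at least 2-fold higher (1.01% of all genes) and 0 lower.

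Dedifferentiation and failed-repair markers had 7 of 18 at least 2-fold higher, 0 lower and a median of 0.72. They were led by Ccl2 (2.24), Ncam1 (1.37), Vcam1 (1.28) and Tpm1 (1.25). Ccl2 attracts monocytes, and Ncam1 and Vcam1 are adhesion molecules. With the mean of all probe sets of a gene, Vcam1 was 0.88 and Tpm1 0.69, and 1 of 16 members measured in that way passed 2-fold. Itgb8, an integrin that activates TGF-beta, was the lowest at -0.73. Claudins of tight junctions led the adhesion list, in which 4 of 25 were at least 2-fold higher, with a median of 0.03 that turned to -0.05 after quantile normalization and -0.06 after median centring. Cldn3 had 941 in the 60 min kidney and 228 in the 45 min kidney (1.97), and Cldn7 had 2149 in the 60 min kidney and 851 in the 45 min kidney (1.32). Cldn1 stood at 1.82 with its brightest probe set and at 0.54 with the mean of its probe sets. The cadherin Cdh3 stood at 1.25 (0.97 with 64 added to the intensity).

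Transporters of the proximal tubule were lower in part. Of 38 measured, 9 were at least 2-fold lower and 0 higher, with a median of -0.65. The 4 lowest were all Slc22 family carriers of organic ions. After Slc22a7, Slc22a19 had 386 in the 60 min kidney and 2677 in the 45 min kidney, and Slc22a13 had 305 in the 60 min kidney and 1231 in the 45 min kidney. Slc34a1, the main phosphate cotransporter, had 17153 in the 60 min kidney and 24702 in the 45 min kidney (-0.53). Slc5a2, the glucose cotransporter SGLT2, stood at 0.07. The list median was -0.65 for 60 minus 0 min and -0.09 for 45 minus 0 min on day 3, and -0.38 for 60 minus 45 min on day 1. The summed intensity of the 38 genes was 243540 in the 60 min kidney, 373511 in the 45 min kidney and 385683 in the 0 min kidney of day 3.

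Metabolic genes of the same cells differed by smaller amounts. Among amino acid and glucose metabolism genes 2 of 24 were at least 2-fold lower and 2 higher (median -0.48). Hpd, of tyrosine breakdown, had 194 in the 60 min kidney and 952 in the 45 min kidney, but the unclamped kidneys also differed, with 1017 on day 3 and 5147 on day 1. G6pc, which releases glucose in gluconeogenesis, stood at -1.39. Prodh2, of hydroxyproline breakdown, stood at 1.38, and Kynu, of tryptophan breakdown, at 1.03 (0.78 with 64 added). Prodh2 had 1148 in the 60 min kidney, 431 in the 45 min kidney and 868 in the 0 min kidney, so its 45 min value was the lowest. In fatty acid oxidation and the peroxisome, 3 of 30 were at least 2-fold lower and 0 higher (median -0.42). They were Acsm3 (-1.80), Crot (-1.11) and Ehhadh (-1.03), and Crot and Ehhadh stood at -0.92 and -0.82 after quantile normalization. All 28 oxidative phosphorylation genes had differences below 0, from -0.61 to -0.07 with a median of -0.40, and 0 passed 2-fold. After quantile normalization 25 of the 28 were below 0 and the median was -0.19, so the size of this shift depended on the scaling. Ndufs1, a complex I subunit, had 5070 in the 60 min kidney, 7739 in the 45 min kidney and 8318 in the 0 min kidney.

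Among nephron identity factors 2 of 20 were at least 2-fold lower (median -0.34). They were Klf15 (-1.73) and Ppara (-1.33), which regulate glucose and fat metabolism. Klf15 had 624 in the 60 min kidney, 2105 in the 45 min kidney and 1196 in the 0 min kidney. Ppara had 798 in the 60 min kidney, 2031 in the 45 min kidney and 1107 in the 0 min kidney. For both genes the 45 min kidney stood above the unclamped one. The list median was -0.33 for 60 minus 0 min and 0.08 for 45 minus 0 min on day 3. Hnf4a, the master regulator of proximal tubule genes, had 9455 in the 60 min kidney, 15250 in the 45 min kidney and 13682 in the 0 min kidney, a 60 minus 45 min difference of -0.69.

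Of the 39 lists, those of the intercalated cells, the distal convoluted and connecting tubule and the thick ascending limb had the lowest medians after the 2 adrenal genes. The principal cell list, also distal, stood higher than the proximal transporters (-0.28 against -0.65). Circadian clock, immunoglobulin and glucocorticoid response genes, listed after their values were seen, stood lower than the distal lists at -1.03, -0.83 and -0.80. In the distal convoluted and connecting tubule 8 of 18 genes were at least 2-fold lower and 0 higher (median -0.77). Calb1, the calcium-binding calbindin, had 2140 in the 60 min kidney, 12596 in the 45 min kidney and 13054 in the 0 min kidney of day 3. Slc12a3, the thiazide-sensitive sodium chloride cotransporter, had 888 in the 60 min kidney, 4262 in the 45 min kidney and 4575 in the 0 min kidney. For these genes the 45 min kidney was near the unclamped kidney and the 60 min kidney stood apart. On day 1 the list had 3 of 18 genes at least 2-fold lower and 0 higher (median -0.33), against 0.982% of all genes lower. Parvalbumin (Pvalb) had 374 after 60 min and 1568 after 45 min on day 1 (-2.02), and Calb1 had 3788 and 9252 (-1.28). Slc12a3 was closer on that day, with 2897 after 60 min and 3836 after 45 min (-0.40). The magnesium channel Trpm6 stood at -1.52 and the calcium exchanger Slc8a1 at -1.88 on day 3. Of the 8 genes, Tsc22d3 (-1.88) differed in pattern, with 1159 in the 60 min kidney, 4304 in the 45 min kidney and 1662 in the 0 min kidney. The list median was -0.68 for 60 minus 0 min and 0.00 for 45 minus 0 min.

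In the thick ascending limb 3 of 17 genes were at least 2-fold lower and 0 higher (median -0.72). Egf, a growth factor that this segment secretes, had 5356 in the 60 min kidney, 23110 in the 45 min kidney and 23566 in the 0 min kidney of day 3. On day 1 it had 6409 after 60 min, 17862 after 45 min and 19971 after 0 min. Both 60 min arrays were lower than the other 4 for Egf. Tmem207 (-2.09) and the transcription factor Irx1 (-1.01, or -0.91 with 64 added) were the other two. Umod, uromodulin, stood at -0.52 and Slc12a1, the loop diuretic target, at -0.72.

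Intercalated cell genes, which serve acid-base transport, had 7 of 17 at least 2-fold lower and 0 higher (median -0.77). Slc4a1, the basolateral anion exchanger, had 133 in the 60 min kidney, 577 in the 45 min kidney and 811 in the 0 min kidney. Aqp6, a vesicle aquaporin, stood at -1.53, and the proton pump subunit Atp6v1b1 at -1.09. Car2, the cytosolic carbonic anhydrase, was close in the 60 min (15600) and 45 min (15174) kidneys. Principal cell genes of the collecting duct were mixed, with 2 of 19 at least 2-fold higher, 2 lower and a median of -0.28. The higher were Krt18 (1.73), also an injury marker, and St6gal1 (1.23, or 0.79 with the mean of its probe sets), which adds sialic acid to glycoproteins. The lower were Rhcg (-1.35), an ammonia channel, and Aqp4 (-1.32), a water channel.

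**Figure D3:**
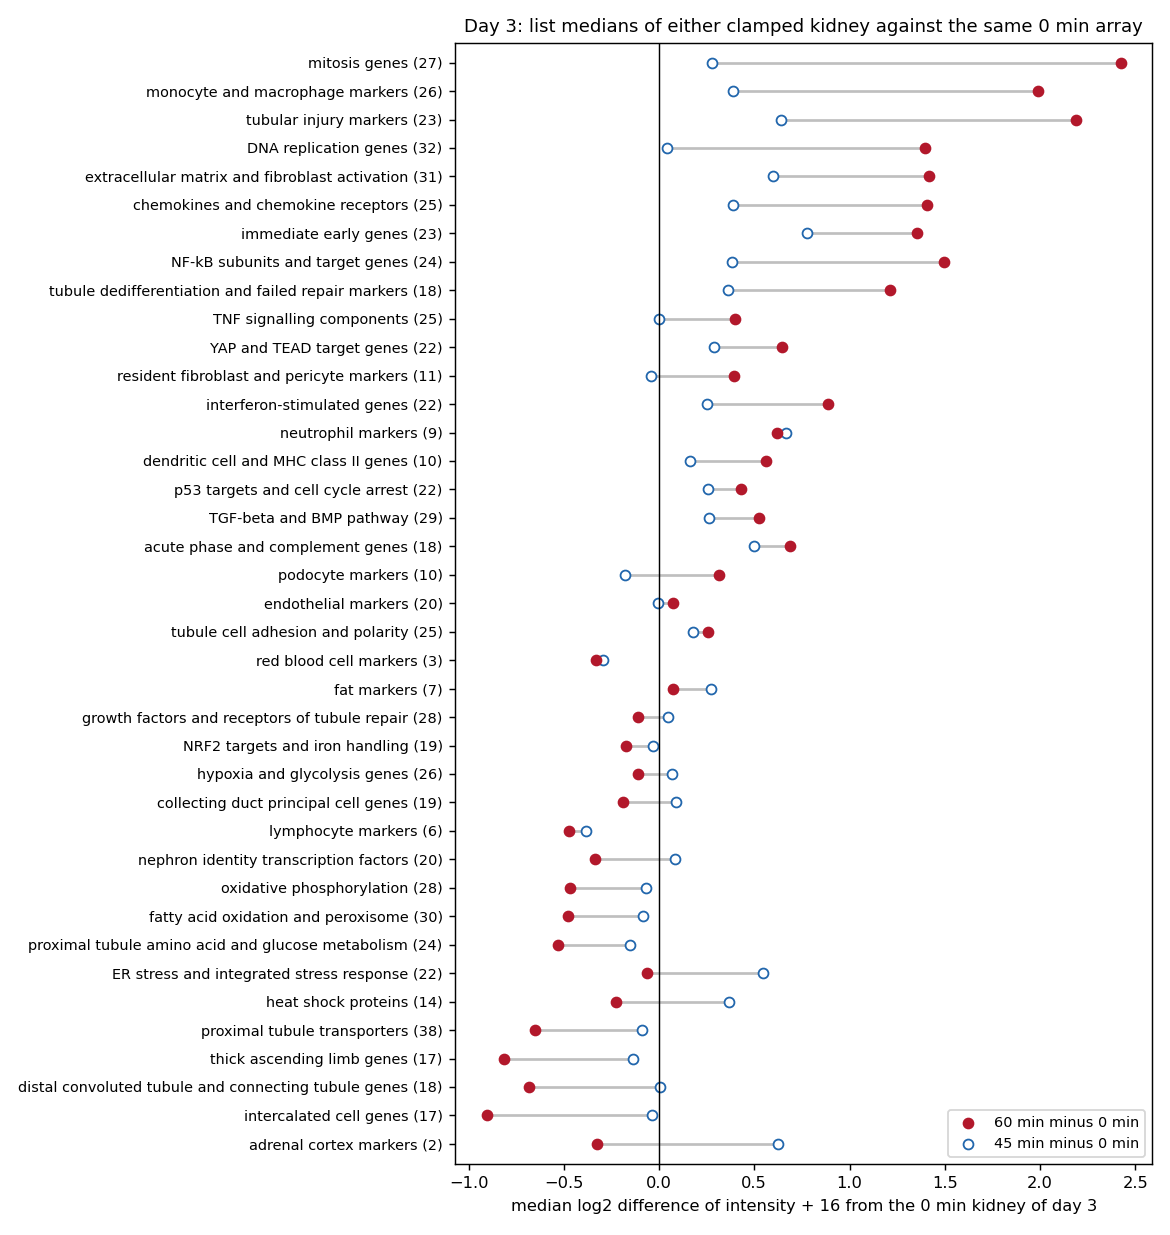
Median log2 difference of intensity + 16 from the 0 min kidney of day 3 for 39 lists, with the 60 min kidney as filled and the 45 min kidney as open circles. Both use the same 0 min array. Mitosis genes stood at 2.42 for 60 min and 0.28 for 45 min, and heat shock proteins at -0.23 for 60 min and 0.37 for 45 min.

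Macrophage markers were higher nearly throughout, with 24 of 26 at least 2-fold higher, 0 lower and a median of 1.52. Gpnmb, a glycoprotein of lipid-laden macrophages, had 535 in the 60 min kidney, 59.9 in the 45 min kidney and 46.6 in the 0 min kidney of day 3. On day 1 Gpnmb had 60.2 after 60 min, 92.5 after 45 min and 51.1 after 0 min, so only the 60 min kidney of day 3 stood apart. Cd68, a lysosomal protein of macrophages, had 1105 in the 60 min kidney, 182 in the 45 min kidney and 195 in the 0 min kidney of day 3. Arg1, arginase, had 498 in the 60 min kidney and 107 in the 45 min kidney on day 3, but 337 after 60 min and 442 after 45 min on day 1. Csf1r stood at 0.47 and Cd36, a fatty acid receptor that tubules express too, at -0.84. The summed intensity of the 26 markers was 90852 in the 60 min kidney, 44764 in the 45 min kidney and 32795 in the 0 min kidney of day 3, and 0 markers were below 16 on both clamped arrays. The list median was 1.99 for 60 minus 0 min and 0.39 for 45 minus 0 min on day 3. For 60 minus 45 min on day 1 it was -0.03, with 1 of 26 genes at least 2-fold higher (1.01% of all genes).

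Other blood cell lists differed less. Among neutrophil markers 1 of 9 was at least 2-fold higher and 0 lower (median 0.38). It was Clec4d (1.68), a lectin receptor, with 439 in the 60 min kidney and 126 in the 45 min kidney. Clec4d was read from a probe set with shared probes, and without such probe sets 0 of 7 neutrophil markers were past 2-fold in either direction. Of the 16 neutrophil genes on the array, Cxcr2 and Camp were below an intensity of 16 on both day 3 arrays. Dendritic cell and MHC class II genes had 1 of 10 at least 2-fold higher (median 0.34), Cd83 at 1.03, which was 0.81 with 64 added. Lymphocyte markers had 6 of 18 above the filter, of which Jchain was at least 2-fold lower (median -0.32), and Cd4 and Cd79a were below 16 on both day 3 arrays.

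Chemokine genes had 11 of 25 at least 2-fold higher and 1 lower (median 0.91). Ccl2 had 1176 in the 60 min kidney, 237 in the 45 min kidney and 186 in the 0 min kidney of day 3. On day 1 it had 336 after 60 min and 317 after 45 min. Cx3cr1, the fractalkine receptor of monocytes, had 563 in the 60 min kidney and 131 in the 45 min kidney (1.97). Ccr2, the receptor of Ccl2, had 295 in the 60 min kidney, 67.9 in the 45 min kidney and 188 in the 0 min kidney, and its difference of 1.89 was 0.95 with the mean of its probe sets. Cxcl1, a neutrophil attractant, stood at 0.39, with 2255 in the 60 min kidney, 1723 in the 45 min kidney and 183 in the 0 min kidney. Cxcl1 was therefore high in both clamped kidneys. Ccl28, a mucosal chemokine, was the lower one at -2.04, but the unclamped kidneys also differed, with 2473 on day 3 and 8240 on day 1.

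Genes of the TNF and NF-kB pathways were examined because the series concerns TNF. Tnf was dim and did not pass the filter on low values, with 73.4 in the 60 min kidney, 36.3 in the 45 min kidney and 18.4 in the 0 min kidney of day 3. On day 1 its intensity was under 16 on all 3 arrays. The receptor genes Tnfrsf1a and Tnfrsf1b stood at 0.68 and 0.94, below 2-fold. Among 25 TNF signalling components 4 were at least 2-fold higher and 0 lower (median 0.53). Rhbdf2, which encodes iRhom2, the partner that matures the TNF-shedding protease, had 256 in the 60 min kidney, 24.0 in the 45 min kidney and 51.0 in the 0 min kidney (2.76 for 60 minus 45 min). Mlkl (1.75) and Ripk3 (1.28) carry out necroptosis, a lytic cell death, and Casp8 (1.15) is the protease that restrains it. Casp8 had 1796 in the 60 min kidney, 800 in the 45 min kidney and 1260 in the 0 min kidney of day 3. Its 45 min value was thus the lowest of that day. Ripk3 was 0.94 with 64 added.

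NF-kB subunits and targets had 10 of 24 at least 2-fold higher, 0 lower and a median of 0.86. Of the 10, Ccl2, Ccl20, Ccl5, Cxcl2 and Cxcl10 are also in the chemokine list. Nfkbie, an inhibitor of NF-kB, had 874 in the 60 min kidney and 175 in the 45 min kidney (2.22), and 0.85 when probe sets with shared probes were left out. Ccl20 had 317 in the 60 min kidney, 89.8 in the 45 min kidney and 5.57 in the 0 min kidney. Nfkbia and Rela, an inhibitor and a subunit of NF-kB, stood at 0.14 and 0.21. The summed macrophage markers given above were also higher in the 60 min kidney, and their part in the chemokine and NF-kB differences was not tested.

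Interferon-stimulated genes had 3 of 22 at least 2-fold higher and 0 lower (median 0.45), namely Psmb8 (1.14), Gbp3 (1.11) and Ddx58 (1.09). Psmb8 and Ddx58 were 0.65 and 0.86 with the mean of their probe sets. Acute phase and complement genes had 2 of 18 higher and 1 lower (median 0.22). Cfi, complement factor I, stood at 1.18, and Serpina3n, a protease inhibitor, at 1.08 (0.94 after quantile normalization). Pigr, the epithelial carrier of polymeric immunoglobulin, was the lower one at -1.71, with 1093 in the 60 min kidney and 3622 in the 45 min kidney. The unclamped kidneys had 2767 on day 3 and 6557 on day 1, so they too differed for Pigr.

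Matrix and fibroblast activation genes had 17 of 31 at least 2-fold higher, 0 lower and all 31 above 0, with a median of 1.01 (0.93 after median centring of each array). Tagln, a contractile protein of myofibroblasts, had 4291 in the 60 min kidney, 1359 in the 45 min kidney and 1016 in the 0 min kidney of day 3. Fn1, fibronectin, had 6760 in the 60 min kidney, 2579 in the 45 min kidney and 1586 in the 0 min kidney. Vim, the intermediate filament of mesenchymal and injured cells, stood at 1.49, and Col5a2, a fibrillar collagen, at 1.45. Col1a1, the main chain of type I collagen, had 1395 in the 60 min kidney and 684 in the 45 min kidney (1.01), and was under 2-fold in 3 alternatives (0.93 to 0.96). The list median was 1.42 for 60 minus 0 min and 0.60 for 45 minus 0 min on day 3, and 0.09 for 60 minus 45 min on day 1. Markers of resident fibroblasts and pericytes had 0 of 11 past 2-fold in either direction (median 0.45). Their summed intensity was 24139 in the 60 min kidney and 29913 in the 45 min kidney, and Lpl, a lipase that fat cells make too, alone had 8744 in the 60 min kidney and 17450 in the 45 min kidney.

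In the TGF-beta and BMP pathway 4 of 29 were at least 2-fold higher and 0 lower (median 0.26). Fst, the activin antagonist follistatin, had 3612 in the 60 min kidney and 1108 in the 45 min kidney (1.69). Id3 (1.57), a BMP target, and Tgfbi (1.25), a TGF-beta-induced matrix protein, were also higher. Id3 had 4612 in the 60 min kidney, 1545 in the 45 min kidney and 2508 in the 0 min kidney, so its 45 min value was the lowest. Tgfb2 stood at 1.06, or 0.79 with 64 added. YAP and TEAD targets, which respond to cell stretch and loss of contact, had 7 of 22 at least 2-fold higher and 0 lower (median 0.46). The largest difference was that of Birc5 (2.71), which is also in the mitosis list. Ankrd1 had 1892 in the 60 min kidney, 291 in the 45 min kidney and 76.3 in the 0 min kidney (2.64 for 60 minus 45 min), and Ccn1, a secreted matrix protein, stood at 1.93. Ccn2, another classical target, had 5061 in the 60 min kidney, 4886 in the 45 min kidney and 2128 in the 0 min kidney, a 60 minus 45 min difference of 0.05. Ccn2 was therefore above the unclamped value by a similar amount in both clamped kidneys.

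Immediate early genes had 6 of 23 at least 2-fold higher and 1 lower (median 0.90). Fosl1, an AP-1 subunit, stood at 1.70, Egr1 at 1.33 and Dusp5, a phosphatase that limits ERK signalling, at 1.96. Dusp1, another such phosphatase, was the lower one at -1.42, with 1881 in the 60 min kidney, 5049 in the 45 min kidney and 1989 in the 0 min kidney. Growth factors and receptors of tubule repair had 2 of 28 higher and 2 lower (median -0.12), against 5.95% and 2.38% of all genes. Igfbp2 (1.39) and Igf1 (1.03, or 0.78 with the mean of its probe sets) were the higher, and Igfbp1 and Egf the lower. Hypoxia and glycolysis genes had 1 of 26 higher and 0 lower (median -0.16), again against 5.95% and 2.38% of all genes. The higher one was Hk2 (1.27), a hexokinase.

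Heat shock and endoplasmic reticulum stress lists were lower in the 60 min kidney, and several of their genes had their highest value of day 3 in the 45 min kidney. Heat shock proteins had 4 of 14 at least 2-fold lower in the 60 min than in the 45 min kidney and 0 higher (median -0.55). Hspa1a had 1067 in the 60 min kidney, 7932 in the 45 min kidney and 1424 in the 0 min kidney of day 3, and 797 to 1214 on the day 1 arrays. Hspa1b had 7640 in the 60 min kidney, 26781 in the 45 min kidney and 8619 in the 0 min kidney. Hspa1a and Hspa1b encode near-identical HSP70 chaperones, so their probes may not separate them. Hsph1, an HSP70 partner, stood at -1.74 and Dnaja1, a cochaperone, at -1.02 (-0.79 after quantile normalization). The list median was -0.23 for 60 minus 0 min and 0.37 for 45 minus 0 min. Hspb1, a small heat shock protein, went the other way at 0.34, with 6561 in the 60 min kidney, 5192 in the 45 min kidney and 1712 in the 0 min kidney.

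Endoplasmic reticulum stress genes had 2 of 22 at least 2-fold lower and 0 higher (median -0.54), with medians of -0.07 for 60 minus 0 min and 0.54 for 45 minus 0 min. Herpud1, of protein degradation in the endoplasmic reticulum, had 3513 in the 60 min kidney, 12102 in the 45 min kidney and 6046 in the 0 min kidney (-1.78 for 60 minus 45 min). Creld2, a secretory pathway protein, stood at -1.41. NRF2 targets and iron genes had 2 of 19 higher and 1 lower (median -0.13). Besides Hmox1, the aldo-keto reductase Akr1b8 was higher (1.67), and Gclc, of glutathione synthesis, was lower (-1.18).

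Markers of endothelium, podocytes and fat differed by small amounts. Endothelial markers had 0 of 20 past 2-fold in either direction (median 0.16), with summed intensities of 15357 in the 60 min kidney and 14029 in the 45 min kidney. Podocyte markers had a median of 0.16 and 1 of 10 at least 2-fold higher, Tcf21, a factor also made in stromal cells, with 2612 in the 60 min kidney and 911 in the 45 min kidney. Fat markers had 0 of 7 past 2-fold (median -0.08). Of 3 red blood cell markers Alas2 was lower (-1.62), with 73.9 in the 60 min kidney, 260 in the 45 min kidney and 597 in the 0 min kidney. Of 2 measured adrenal cortex markers Star was lower (-1.47, or -0.88 with 64 added), with 27.0 in the 60 min kidney and 103 in the 45 min kidney. The adrenal markers Cyp11b1 and Hsd3b1 were below 16 on both day 3 arrays.

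The same clamp times on day 1 give a comparison that shares no array with the one on day 3. There, 128 genes (1.01%) were at least 2-fold higher and 125 (0.982%) lower after 60 than after 45 min. On day 3 the 2 counts were 758 and 303. In all, 42 genes were higher on both days, which is 5.54% of the day 3 genes and 32.8% of the day 1 genes. A further 33 were lower on both days, 10.9% of the day 3 and 26.4% of the day 1 genes. Opposite calls were made for 4 genes higher on day 3 and lower on day 1, and for 11 lower on day 3 and higher on day 1. Across the 12735 genes, which are not independent replicates, the differences of the 2 days had a Pearson r of 0.309 and a Spearman rho of 0.311.

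Lists differed in how day 3 compared with day 1. The injury list had medians of 1.49 on day 3 and 0.95 on day 1, and proximal transporters of -0.65 on day 3 and -0.38 on day 1. Mitosis genes had a median of 1.97 on day 3 and 0.02 on day 1, macrophage markers 1.52 on day 3 and -0.03 on day 1, and matrix genes 1.01 on day 3 and 0.09 on day 1. Heat shock proteins had -0.55 on day 3 and 0.27 on day 1. The differences between days were not tested. Azgp1, a secreted zinc-binding glycoprotein, had the largest day 1 difference (4.54), with 773 after 60 min, 18 after 45 min and 802 after 0 min on day 1. On day 3 Azgp1 was at 15 in the 60 min kidney, 11.6 in the 45 min kidney and 12.5 in the 0 min kidney, so its signal was near the floor in all 3.

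**Figure D4:**
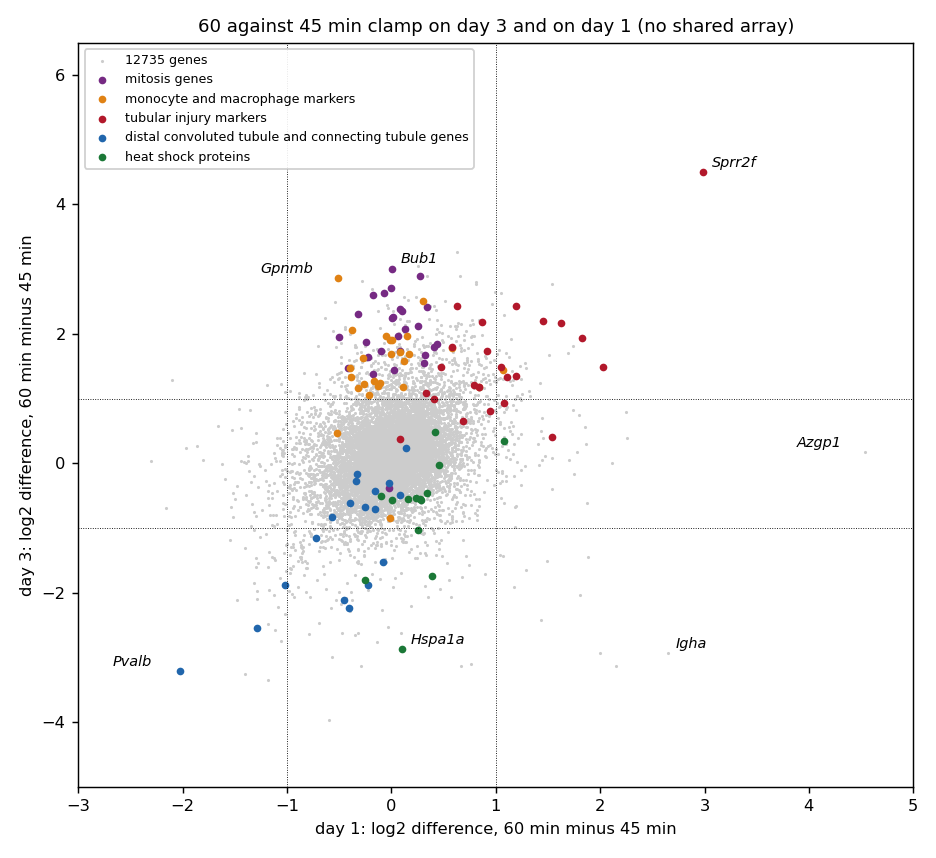
Log2 difference of intensity + 16, 60 min minus 45 min clamp, on day 3 (vertical axis) against day 1 (horizontal axis) for 12735 genes in grey, with 5 lists in colour and dotted lines at 2-fold. Sprr2f stood at 4.51 on day 3 and 2.99 on day 1, Bub1 at 3.01 on day 3 and 0.01 on day 1, and Igha at -2.93 on day 3 and 2.65 on day 1.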

How the data were processed

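Total RNA of 6 mouse kidney samples was read on 6 arrays, 1 for each clamp time and day. Per the labels' protocols, RNA was extracted with Trizol and labelled with a 3' IVT kit, which copies RNA from its 3' end. The authors deposited linear intensities, 1 per probe set and array. The submitters' processing notes name Affymetrix Expression Console, with a version and algorithm not given in the sources used here. The equal trimmed means show that the arrays were scaled to a common target, so a shift in many bright genes would move the rest.

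The array has 45101 probe sets. Of these, 34945 carry a single gene symbol in the platform annotation, 932 carry several, 9160 carry none and 64 are controls. Each of 18193 genes was read from its brightest probe set over the 6 arrays, by mean log2(intensity + 16). Genes under the 40th percentile of that mean (log2 6.01) were left out, and 12735 stayed. The number of arrays limits the precision, and each difference sets 1 array against another.

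Named genes were the 15 highest, the 15 lowest, up to 4 per list by absolute difference, up to 6 per direction by day 3 minus day 1 difference, and Havcr1, Lcn2, Tnf, Tnfrsf1a, Tnfrsf1b, Slc34a1, Umod, Egf, Mki67, Col1a1 and Hnf4a, with predicted genes passed over. Other list members, named for contrast or as members past 2-fold, were chosen after their values were seen. The 39 lists hold 902 symbols. The array measures 822 of them, 756 had enough signal for the filter, and 39 symbols stand in more than 1 list. The comparison, its members and its lists were chosen with earlier results of these data known. Of 177 named genes, 64 had several probe sets above the filter, and in 60 of these all had the same sign.

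Calculations used Python 3.11.15, numpy 2.4.6 and pandas 2.3.3, and were tested on simulated data. The alternatives tried were 1 or 64 in place of the added 16, quantile normalization, centring each array on its median, leaving out the filter or setting it at the 60th percentile, averaging the probe sets of a gene, and choosing the probe set on the 2 arrays compared. Leaving out probe sets with shared probes was chosen after seeing the data.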

Additional observations from a re-analysis of the deposited data

Results flagged for a closer look

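The named genes whose 60 minus 45 min difference had opposite directions on day 3 and day 1, past 2-fold on each day, are given here with the day 3 difference minus the day 1 difference. With 1 array per condition the difference between days was not tested. Of the 3 immunoglobulin genes, Igha stood at -5.58, Igkv8-30 at -5.27 and Jchain at -4.92. Igha, the heavy chain of IgA, had 1587 in the 60 min kidney, 12185 in the 45 min kidney and 10885 in the 0 min kidney of day 3. On day 1 it had 2395 after 60 min, 369 after 45 min and 13435 after 0 min. The 45 min kidney of day 1 was the lowest of the 6 arrays for Igha, Igkv8-30 and Jchain. Tc2n, a C2 domain protein, stood at -3.86, with 34.3 in the 60 min kidney and 254 in the 45 min kidney on day 3, and 47.1 after 60 min and 7.29 after 45 min on day 1. Ccl28 stood at -3.84, with 928 in the 60 min kidney and 3857 in the 45 min kidney on day 3, and 2105 after 60 min and 590 after 45 min on day 1. The unclamped kidneys had 2473 on day 3 and 8240 on day 1, so they too differed for Ccl28. Tnfaip8l2, an immune regulator, went the other way at 3.38, with 260 in the 60 min kidney and 97.7 in the 45 min kidney on day 3, and 12.3 after 60 min and 106 after 45 min on day 1.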

How the results depend on the processing

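No paired analysis was possible because each condition holds 1 array. For the same reason no array could be left out. Counts of genes past 2-fold depended on how dim genes were treated. The 758 genes higher on day 3 became 492 with 64 added, 1169 without a filter and 434 with a filter at the 60th percentile, and the 303 lower became 739 without a filter. On day 1 the 128 higher became 63 with 64 added, 485 without a filter and 68 at the 60th percentile. The 125 lower on day 1 became 188 with 1 added, 56 with 64 added, 445 without a filter and 64 at the 60th percentile. The share of higher among all called genes on day 3 was 71.4%, and 61.3% without a filter. Median centring brought the median of all genes on day 3 to 0.00 and quantile normalization to 0.01, from 0.09. The matrix list median of 1.01 was 0.99 with 64 added and 0.93 after median centring. The adrenal median, over few dim genes, was -0.044 without a filter. The lymphocyte median was -1.88 at the 60th percentile and 0.42 without shared probe sets, so its direction depends on which genes are read. The count of members past 2-fold went to 14 of 15 mitosis genes, 6 of 19 NF-kB genes, 6 of 15 chemokine genes and 1 of 20 TNF components at the 60th percentile, where fewer genes were measured, from 26, 10, 11 and 4. It was 3 of 17 intercalated cell genes with 64 added (7 before), 7 of 28 TGF-beta genes with 1 added (4 before), 2 of 24 adhesion genes and 1 of 16 dedifferentiation genes with the mean of all probe sets (4 and 7 before). The small medians of the neutrophil (-0.16 at the 60th percentile) and growth factor (0.0032 with the mean of all probe sets) lists changed sign. For single named genes, 1480 values under an alternative stayed on their side of 2-fold, 43 dropped under 2-fold and 12 passed it. Of the 1480, those under 2-fold moved by at most 1.5-fold, and whether they kept their direction was not checked. Ighm turned to 1.22 without shared probe sets.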

Other observations

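The lists in this paragraph were chosen after their values were seen, so their counts describe these arrays and support nothing further. In the 60 min against the 45 min kidney of day 3, 2.38% of all genes were at least 2-fold lower and 5.95% higher. Circadian clock genes had 10 of 18 at least 2-fold lower and 2 higher (median -1.03). Among the lower genes were the clock output factor Dbp and the clock repressor Per2, with Dbp at 572 in the 60 min kidney, 2762 in the 45 min kidney and 1757 in the 0 min kidney, and Per2 at 223 in the 60 min kidney, 938 in the 45 min kidney and 490 in the 0 min kidney. Arntl and Npas2, whose proteins activate Dbp and Per2, were the higher genes, at 1.36 and 1.21. The labels do not give the hour of collection. On day 1 the same list had 0 lower and 2 higher (background 0.982% lower and 1.01% higher), with a median of -0.38.

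Genes known to respond to glucocorticoids or fasting had 10 of 26 at least 2-fold lower (2.38% of all genes) and 0 higher (median -0.80). Their median was 0.87 for 45 minus 0 min and -0.34 for 60 minus 0 min on day 3, 2 comparisons that share the 0 min array. Zbtb16, a hormone-induced transcription factor, had 136 in the 60 min kidney, 1319 in the 45 min kidney and 211 in the 0 min kidney. Fkbp5, a glucocorticoid receptor cochaperone, had 1395 in the 60 min kidney, 5397 in the 45 min kidney and 2091 in the 0 min kidney. Both were highest of all 6 arrays in the 45 min kidney of day 3. Pdk4, which limits glucose oxidation in fasting, had 662 in the 60 min kidney, 1683 in the 45 min kidney and 560 in the 0 min kidney of day 3. On day 1 Pdk4 had 2243 after 60 min, 1632 after 45 min and 2631 after 0 min. The unclamped kidneys thus differed for Pdk4. For the 26 genes, 0 min day 3 minus day 1 had a median of -0.62, with 20 below 0 and 6 above. Immunoglobulin and plasma cell genes had 4 of 9 at least 2-fold lower (2.38% of all genes) and 1 higher (5.95% of all genes), with a median of -0.83. The higher one was Sdc1 (1.76), a proteoglycan of plasma cells that epithelia make too.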
